A study of Mus musculus with 120 samples.

Results

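The 9 genes described here (*Timd4*, *Lyve1*, *Folr2*, *Vsig4*, *Cd5l*, *Gata6*, *Prg4*, *F13a1* and *Adgre1*) are markers of macrophages that live in tissues and body cavities. They were chosen by name, and all 9 were found among the 55487 genes listed for both sequencing batches. Bulk RNA sequencing was performed on 120 scaffold biopsies from female mice. Immunological niches (INs) are porous polycaprolactone scaffolds placed under the skin, where host cells grow into them, and a new scaffold took the place of each one taken out. NOR/LtJ (NOR) mice, a diabetes-free strain related to NOD, gave 23 samples from 5 mice, all in batch 1 (n = 4 at 6 weeks of age, 5 at 10, 5 at 14, 4 at 18 and 5 at 22). NOD/ShiLtJ (NOD) mice develop autoimmune diabetes spontaneously, and the labels name no transgene or drug for any group. NOD mice that stayed free of hyperglycemia (nonprogressors) gave 33 samples from 11 mice by age. Of these, batch 1 held 4 at each of the 5 ages, and batch 2 held 7 at 6 weeks and 6 at 14 weeks. A further 6 nonprogressor samples carry days after implantation (31, 38 and 108 days, 2 each, batch 1). Their labels name a mouse 1 and a mouse 2 at each time, which were not tied here to the mice numbered by age. These samples entered no test. NOD mice that became hyperglycemic (progressors) gave 58 samples from 10 mice. These were taken at 6 weeks of age (n = 10), at 7 weeks before onset (−7, n = 8), and at −5, −3 and −1 weeks and onset (n = 10 each). Progressor mice 1–5 were sequenced in batch 1 and mice 6–10 in batch 2, except that all −7 samples (mice 1–4, 6, 7, 9 and 10) were in batch 2. The sequencing run and the set of mice therefore cannot be told apart. INs taken at 6 weeks were original implants, placed at 4 weeks of age. The paper describes 4 INs per mouse, taken out and replaced weekly in rotation from 6 weeks of age. On that schedule, biopsies at 10 weeks of age or later were replacements, unlike those at 6 weeks. The labels give no age for progressor biopsies after 6 weeks, so whether every −7 IN was a replacement is not known. The age of the mouse, the time since its IN was placed and earlier surgery at the site cannot be told apart either.

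Macrophages seeded before birth persist in many tissues by self-renewal, whereas others arise from blood monocytes and take on resident features only with time. Interstitial resident macrophages around vessels and in connective tissue are typically recognized by LYVE1, FOLR2 and TIM4, and large macrophages of the peritoneal and pleural cavities by the transcription factor GATA6 and its dependent genes. An implanted scaffold starts without macrophages and is populated by cells that migrate in from blood and the surrounding tissue. *Adgre1* encodes F4/80, a surface receptor found on most mouse macrophages. *Folr2* encodes folate receptor beta, *Lyve1* a hyaluronan receptor that lymphatic vessels also carry, and *F13a1* the A subunit of coagulation factor XIII, which platelets hold as well. *Timd4* encodes TIM4, a receptor for phosphatidylserine on dying cells. *Vsig4* encodes the complement receptor CRIg, and *Cd5l* a secreted protein that binds lipids and microbes and protects macrophages from apoptosis. *Prg4* encodes lubricin, a secreted glycoprotein that also lubricates joints. *Gata6* and *Prg4* are not restricted to macrophages, since endothelial, mesenchymal and other cells use them too.

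The promoters of *Timd4*, *Vsig4* and *Cd5l* are shown because these 3 genes, a pair of receptors and a secreted factor, fell together between −5 weeks and onset in batch 2. *Prg4* fell there too, but no promoter sequence was available for it. Each run is the 250 bases upstream of the RefSeq start (GRCm38.p6), written 5′ to 3′ on the gene's strand, with matches to the searched motifs in capitals. *Timd4* lies on the plus strand of chromosome 11 (46810800 to 46844332, GRCm38, GENCODE M21), *Vsig4* on the minus strand of chromosome X (96247203 to 96293438) and *Cd5l* on the plus strand of chromosome 3 (87357881 to 87371073).
Timd4 (chr11:46810549-46810798): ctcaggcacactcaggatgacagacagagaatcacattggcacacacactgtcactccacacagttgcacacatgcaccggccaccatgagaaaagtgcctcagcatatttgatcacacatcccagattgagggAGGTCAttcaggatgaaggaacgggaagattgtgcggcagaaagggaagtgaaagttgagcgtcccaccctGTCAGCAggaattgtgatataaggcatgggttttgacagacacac
Vsig4 (chrX:96293439-96293688): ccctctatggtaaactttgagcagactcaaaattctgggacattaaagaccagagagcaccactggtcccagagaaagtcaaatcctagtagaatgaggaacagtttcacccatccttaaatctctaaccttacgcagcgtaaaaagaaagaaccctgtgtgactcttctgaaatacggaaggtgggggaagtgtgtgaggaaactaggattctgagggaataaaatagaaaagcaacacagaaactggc
Cd5l (chr3:87357631-87357880): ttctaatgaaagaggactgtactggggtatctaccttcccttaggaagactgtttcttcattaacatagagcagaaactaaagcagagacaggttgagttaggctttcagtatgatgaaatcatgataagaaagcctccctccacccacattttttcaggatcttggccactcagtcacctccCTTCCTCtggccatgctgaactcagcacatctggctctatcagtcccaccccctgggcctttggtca
Motifs of 4 factor families known in macrophages were searched on both strands. The letters used for PU.1 were GAGGAAG. Those for MAF were TGCTGAC, the core of its longer site. For GATA factors they were AGATAAG. Those for the nuclear receptor LXR were AGGTCA, a repeat unit of its site that other nuclear receptors share. The *Timd4* window held the MAF letters on the opposite strand, 45 bases before the gene's start, and the LXR letters at −116. In *Cd5l*, the PU.1 letters stood on the opposite strand at −67, and in *Vsig4* none of the 4 motifs matched. Such matches are common: of 27025 promoters, 10.4% held the PU.1 letters in the same 250 bases, 3.72% those of MAF, 2.78% those of GATA factors and 13.8% those of LXR. These matches describe the sequence only, and no binding was measured.

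The median library of batch 1 held 30186412 counts (lowest 4722396, highest 56185434), and that of batch 2 held 36440355 (29029239 to 43880986). Levels are given as CPM, the counts of a gene relative to the size of its library, scaled by edgeR's TMM factors within a batch, and levels in different batches are not compared. *Csf1r*, the receptor for the macrophage growth factor, was detected in all 120 samples and ranged from 313 to 693 CPM in batch 1 and from 377 to 733 CPM in batch 2. *Clec4f*, which defines Kupffer cells of the liver, was at 0 in 70 of 74 samples of batch 1 and 45 of 46 of batch 2. *Upk3b*, a mesothelial gene, was at 0 in 45 of 74 and 29 of 46. The lymphatic gene *Prox1* was detected throughout at a low level (medians 0.847 and 0.893 CPM). Bulk RNA holds every cell type of the IN, so fewer cells of a type and less RNA per cell cannot be told apart. A library stood apart. NOR mouse 5 at 18 weeks had 8616431 counts, of which 85.7% mapped to 1 ribosomal RNA gene. That library held no count of *Timd4* or *Vsig4*, and its *Cd5l* level (4.85 CPM) rested on 5 counts.

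Per kilobase of exon, the medians of the 9 genes differed widely. In batch 1 the median over the 74 samples was 49.4 CPM per kb for *Adgre1*, 46.3 for *Folr2* and 36.0 for *F13a1*. *Lyve1* followed at 8.77 CPM per kb and *Prg4* at 1.95. *Cd5l* (1.05), *Gata6* (0.942) and *Vsig4* (0.744) lay close together, and *Timd4* was lowest at 0.236 CPM per kb. In batch 2 the same 3 genes led (medians of 106, 104 and 98.4 CPM per kb) and *Timd4* was again lowest (0.624), whereas *Vsig4* (2.07) ranked above *Prg4* (1.86) and *Cd5l* (1.16). The ranges of the 3 leading genes overlapped in either batch, and so did those of *Prg4*, *Cd5l*, *Gata6*, *Vsig4* and *Timd4*. The order within each of these sets is not resolved by the spread. *Timd4* ranged from 0 to 3.39 CPM over batch 1 and from 0.432 to 12.2 CPM over batch 2, while *Adgre1* ranged from 63.1 to 224 CPM and from 218 to 494 CPM.

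**Figure D1:**
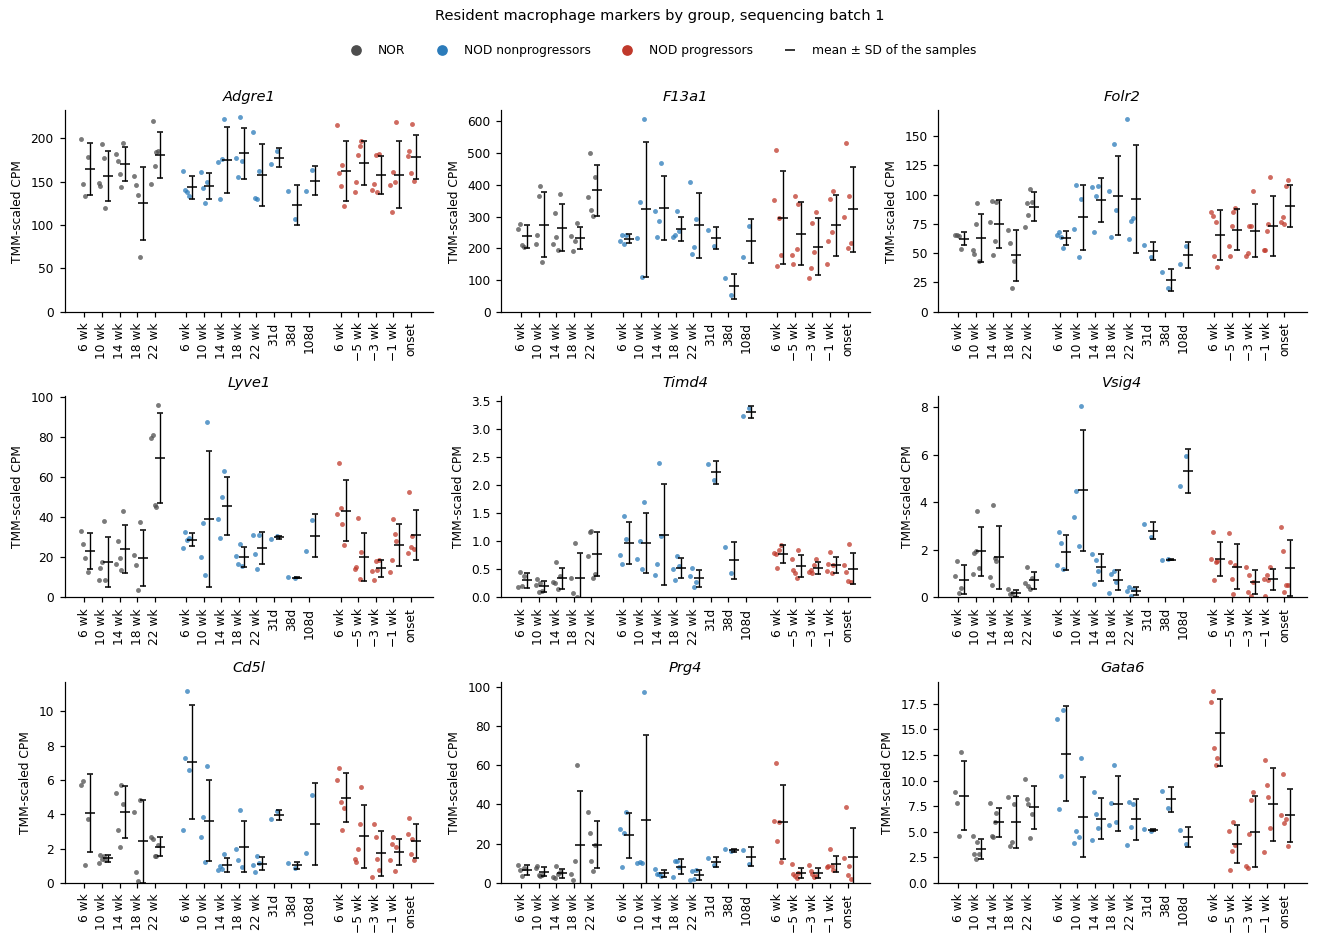
TMM-scaled CPM of the 9 genes in the 74 samples of batch 1, by group and age, days after implantation (31d, 38d, 108d) or weeks from onset; each point is a sample and the bars give the mean ± SD, cut at 0. *Lyve1* in NOR is highest at 22 weeks (45.2 to 95.8 CPM), and *Gata6* in progressors is highest at 6 weeks (11.5 to 18.8 CPM).

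To ask whether the strain alone shifts these genes, the biopsies of each mouse in batch 1 were summed and 9 NOD mice were compared with 5 NOR mice. *Timd4* was 1.69-fold higher in NOD, and the other 8 genes did not pass the threshold. The summed libraries of NOR mice 1 to 5 held 0.350, 0.570, 0.486, 0.380 and 0.321 CPM of *Timd4*, those of progressor mice 1 to 5 held 0.621, 0.550, 0.497, 0.634 and 0.681 CPM, and those of nonprogressor mice 1 to 4 held 0.574, 0.637, 1.17 and 1.08 CPM. NOR mouse 2 lay within the NOD range and the other 4 NOR mice lay below it. The log2 difference of *Timd4* by edgeR's quasi-likelihood fit, with p-values adjusted by Benjamini and Hochberg's method over 23387 genes, was 0.76 ± 0.23 (SE, adjusted p = 0.0490), where 8.98% of all genes tested were called. This call was close to the threshold: it was lost in 11 of 14 fits that each left out a mouse (adjusted p up to 0.126) and without the filter on low counts (adjusted p = 0.0661). The difference from NOR also passed with the nonprogressor mice alone (1.03 ± 0.26, adjusted p = 0.0473, 6.26% of genes called).

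Restricted to the 6-week samples, *Timd4* was 2.75-fold higher in NOD (log2 difference 1.46 ± 0.33, edgeR's quasi-likelihood test, Benjamini-Hochberg adjusted p = 0.0318) and *Prg4* was 4.13-fold higher (2.05 ± 0.46, adjusted p = 0.0305), with 2.11% of genes called. *Prg4* at 6 weeks was 9.29, 6.71, 3.46 and 7.48 CPM in NOR mice, 27.4, 8.22, 25.5 and 36.0 CPM in nonprogressors, and 31.7, 61.4, 21.2, 31.1 and 10.9 CPM in progressors of batch 1. A single nonprogressor (8.22 CPM) lay within the NOR range. Over all ages, *Prg4* had a log2 difference of 0.80 ± 0.42 (adjusted p = 0.280) and *Gata6* of 0.38 ± 0.15 (adjusted p = 0.133). The pan-macrophage list moved the opposite way to *Timd4*: 5 of its 13 genes were lower in NOD and none was higher (8.98% of all genes called in either direction, median log2 difference −0.16, against −0.00 over all genes), led by the complement genes *C1qb* (−0.88), *C1qc* (−0.53) and *C1qa* (−0.50). The part of these genes in the *Timd4* difference was not tested. Of the serous cavity list, *Alox15* (−2.27), *F5* (−1.21) and *Fcna* (−0.40) were lower among 12 genes, and of the Kupffer and splenic list *Marco* (−1.03) and *Id3* (−0.50) were lower among 7. Among 17 other interstitial macrophage genes, *Ccl24*, an eosinophil chemoattractant, was higher (0.74 ± 0.19, adjusted p = 0.0210) and none was lower.

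In NOR mice, none of the 9 genes differed between 10–22 weeks and 6 weeks of age (edgeR's quasi-likelihood test, 0.0357% of 19628 genes called, and *Gata6* alone among the 9 had an unadjusted p under 0.05). *Cd5l* had a log2 change of −0.89 ± 0.45 (adjusted p = 0.754), *Gata6* of −0.67 ± 0.24 (adjusted p = 0.596) and *Adgre1* of −0.06 ± 0.16 (adjusted p = 0.989). Over the 5 ages taken singly, an F test added after the data were seen, *Lyve1* (adjusted p = 0.0167), *Vsig4* (adjusted p = 0.0248) and *Gata6* (adjusted p = 0.0381) varied (edgeR), with 8.24% of genes called. *Lyve1* was 33.1, 26.8, 19.7 and 12.6 CPM at 6 weeks and 79.3, 80.7, 46.2, 45.2 and 95.8 CPM at 22 weeks, so each NOR sample at 22 weeks lay above each at 6 weeks. *Vsig4* had its highest mean at 10 weeks (1.94 ± 1.03 CPM, SD, n = 5) and its lowest at 18 weeks (0.167 ± 0.146, n = 4). *Gata6* had its lowest at 10 weeks (3.32 ± 0.947 CPM, n = 5), against 8.54 ± 3.40 CPM (n = 4) at 6 weeks. Without the 18-week sample of NOR mouse 5, these 3 genes still passed (adjusted p of 0.00921, 0.0262 and 0.0307, 13% of genes called) and *Prg4* passed as well (0.0310). The *Prg4* mean at 18 weeks was 19.4 ± 27.5 CPM with that sample (60.1 CPM) and 5.78 ± 5.18 CPM (n = 3) without it.

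In nonprogressors, 5 of the 9 genes were lower at 10–22 weeks than at 6 weeks, and none was higher (edgeR's quasi-likelihood test with batch as a covariate, 24.1% of 21138 genes called and 14.2% called lower). *Cd5l* fell most, by 2.18 ± 0.33 on the log2 scale (0.220-fold, adjusted p = 4.02e-05). *Prg4* fell by 1.78 ± 0.39 (adjusted p = 0.00148), *Vsig4* by 1.48 ± 0.35 (adjusted p = 0.00283), *Timd4* by 1.45 ± 0.35 (adjusted p = 0.00364) and *Gata6* by 0.91 ± 0.21 (adjusted p = 0.00234). The median log2 change was −0.91 over the 9 genes and −0.03 over all genes tested. *Lyve1* had a change of −0.91 ± 0.38 (adjusted p = 0.0790) and *F13a1* of −0.48 ± 0.31 (adjusted p = 0.277). *Folr2* (0.11 ± 0.21, adjusted p = 0.742) and *Adgre1* (−0.01 ± 0.12, adjusted p = 0.949) did not pass. The same 5 genes varied over the 5 ages by the F test (34.7% of genes called), from adjusted p = 0.00881 for *Timd4* to adjusted p = 5.61e-06 for *Cd5l*.

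The batches differed in how many genes were called. In batch 2, where 7 samples at 6 weeks were compared with 6 at 14 weeks, 7 of the 9 genes were lower (34.1% of genes called, 17.3% lower). *Cd5l* at 6 weeks ranged from 6.59 to 14.9 CPM (median 12.1) and at 14 weeks from 0.345 to 3.65 CPM (median 0.872), without overlap. *Timd4* ranged from 1.83 to 4.68 CPM (median 1.98) and then from 0.468 to 0.912 CPM (median 0.712), again without overlap. *Prg4* fell from a median of 31.1 CPM (16.0 to 69.8) to 3.94 CPM (2.70 to 8.53). *Vsig4* had a median of 6.95 CPM (3.02 to 11.9) at 6 weeks and of 1.92 CPM (0.535 to 2.91) at 14 weeks. The interstitial genes *Lyve1* (log2 change −1.57 ± 0.35, adjusted p = 0.00390) and *F13a1* (−1.40 ± 0.28, adjusted p = 0.00194) were lower there too. *F13a1* had medians of 845 and 279 CPM, and its ranges of 736 to 1082 CPM and 145 to 675 CPM did not overlap, whereas those of *Lyve1* (38.0 to 116 and 12.7 to 63.8 CPM) did. Within batch 1, with 4 mice at each age, only *Cd5l* (−2.05 ± 0.35, adjusted p = 0.00225) and *Gata6* (−0.93 ± 0.28, adjusted p = 0.0330) of the 9 passed (13.8% of genes called). There *Lyve1* (0.08 ± 0.34) and *F13a1* (0.36 ± 0.29) had changes near or above 0. *Cd5l* in batch 1 was 3.10, 7.28, 11.2 and 6.59 CPM at 6 weeks and 1.08, 0.649, 1.57 and 1.18 CPM at 22 weeks.

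Marker lists of other cells moved between the same samples, in which 24.1% of all genes were called and 14.2% were called lower. All 6 fibroblast genes were lower at 10–22 weeks in nonprogressors (median log2 change −0.96), and in batch 2 their summed level ranged from 32553 to 59552 CPM at 6 weeks and from 10774 to 22939 CPM at 14 weeks. Of 4 epidermal genes 3 were lower, and of 5 platelet genes, which matter beside *F13a1*, 3 were higher. All 5 adipocyte and all 5 skeletal muscle genes were higher at 14 weeks in batch 2 (median log2 changes of 5.75 and 4.47). Within that batch 34.1% of genes were called, and 3304 of 19665 were higher. Within batch 1, where 13.8% of genes were called, none of either list passed. Of 8 monocyte genes 4 were lower, led by *Plac8* (−1.15) and *Ly6c2* (−1.08), and in the pan-macrophage list of 13 genes (median −0.08) 1 was higher and 1, the Fc receptor gene *Fcgr1*, was lower (−0.84). Within the interstitial macrophage list, 4 of 17 genes were lower and none was higher: *Cbr2* (−0.83), *Fcgrt* (−0.46), *Igf1* (−0.41) and *Gas6* (−0.39). In the serous cavity list, *Ltbp1* and *Tgfb2* (−0.71) were lower and the lipoxygenase *Alox15* was higher (2.51) among 12 genes. In the Kupffer and splenic list the scavenger receptor *Marco* (−2.01) and the sialic acid receptor *Siglec1* (−0.73) were lower among 7 tested. The part of fibroblasts, epidermis, platelets, fat, muscle and monocytes in the changes of the 9 genes was not tested.

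**Figure D2:**
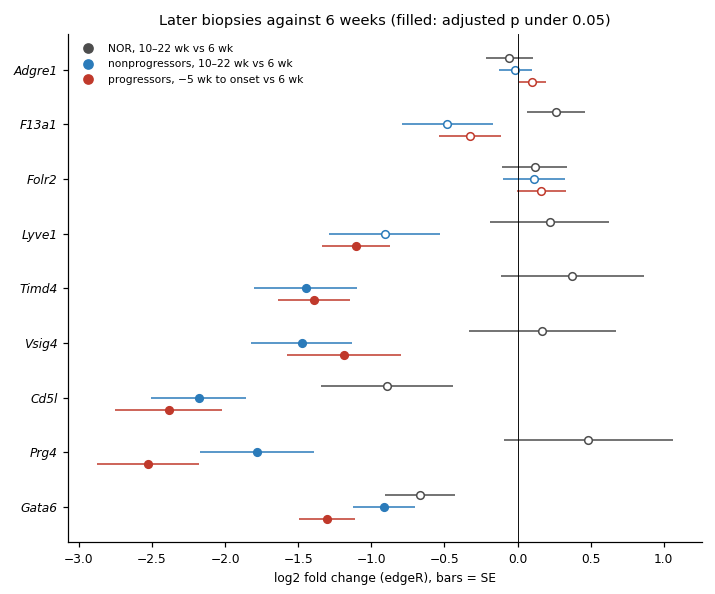
Log2 change (edgeR, bars are the SE) of each gene between later biopsies and 6 weeks in NOR mice, nonprogressors and progressors, with filled points at an adjusted p under 0.05. *Cd5l*, *Prg4*, *Timd4*, *Vsig4* and *Gata6* are filled for both NOD groups, *Lyve1* for progressors, and none for NOR.

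The change with age in nonprogressors was set against that in NOR by an interaction within batch 1. No gene passed for this difference of changes (0% of 20647 genes called, 1250 with an unadjusted p under 0.05 and 9 called by DESeq2). Of the 9 genes, *Prg4* came closest by unadjusted p (−1.96 ± 0.82, adjusted p = 0.777), followed by *Cd5l* (−1.14 ± 0.64, adjusted p = 0.822). A difference between the strains in the change with age was therefore not shown.

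Progressors and nonprogressors were compared first at 6 weeks, before any mouse was hyperglycemic. None of the 9 genes differed (edgeR's quasi-likelihood test, 0% of 19082 genes called, 985 with an unadjusted p under 0.05 and 0 called by DESeq2), and the log2 differences lay between −0.09 and 0.34. In batch 2, *Cd5l* averaged 13.1 ± 5.15 CPM (SD, n = 5) in progressors and 11.1 ± 3.11 CPM (n = 7) in nonprogressors. Among biopsies after 6 weeks, summed for each of 10 mice per group, again none of the 9 was called (0.0132% of 22696 genes called). *Adgre1* had a log2 difference of 0.25 ± 0.09 (adjusted p = 0.470) and *F13a1* of 0.46 ± 0.24 (adjusted p = 0.550). For *Timd4* the batches gave differences of opposite sign, 0.72 ± 0.19 in batch 2 (adjusted p = 0.282, 0.0197% of genes called) and −0.55 ± 0.23 in batch 1 (adjusted p = 0.943, 0% called). They did so for *Vsig4* too (0.66 ± 0.42 and −1.03 ± 0.45, adjusted p = 0.539 and 0.943). The later nonprogressor biopsies were all at 14 weeks in batch 2 and at 10 to 22 weeks in batch 1, so the ages summed differed as well.

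In progressors, 6 of the 9 genes were lower at −5 weeks to onset than at 6 weeks of age and none was higher (edgeR's quasi-likelihood test with batch as a covariate, 39.5% of 21279 genes called and 19.9% called lower). *Prg4* fell by 2.53 ± 0.35 on the log2 scale (0.173-fold, adjusted p = 8.46e-08) and *Cd5l* by 2.39 ± 0.36 (0.191-fold, adjusted p = 6.58e-07). *Timd4* fell by 1.39 ± 0.25 (adjusted p = 9.61e-06), *Gata6* by 1.31 ± 0.19 (adjusted p = 3.01e-07), *Vsig4* by 1.19 ± 0.39 (adjusted p = 0.0125) and *Lyve1* by 1.10 ± 0.23 (adjusted p = 0.000137). *Folr2* (0.16 ± 0.17, adjusted p = 0.469), *F13a1* (−0.33 ± 0.21, adjusted p = 0.225) and *Adgre1* (0.10 ± 0.09, adjusted p = 0.398) did not pass. The median log2 change was −1.19 over the 9 genes and 0.01 over all genes tested. All 6 varied over the 6 times by the F test (35.6% of genes called). *Vsig4* passed in batch 2 alone (−1.77 ± 0.43, adjusted p = 0.00203) and not in batch 1 alone (−0.78 ± 0.55, adjusted p = 0.296), and *Lyve1* passed in both (−1.31 ± 0.31, adjusted p = 0.00169, and −0.97 ± 0.26, adjusted p = 0.0103). Each of the 6 passed in all 10 fits that left out a mouse. The change of *Timd4* ranged from −1.50 to −0.78 over these fits, and −0.78 (adjusted p = 0.00402) was its value without mouse 9. Nonprogressors and progressors were compared over different later times, so the sizes in the 2 groups are given side by side only.

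*Gata6* and *Prg4*, known from serous cavity macrophages but used by other cells too, were lower after 6 weeks in each batch. *Gata6* in mice 1–5 (batch 1) was 17.7, 18.8, 13.2, 11.5 and 12.2 CPM at 6 weeks 5.12, 1.26, 3.09, 5.92 and 3.71 CPM at −5 weeks and 6.63, 10.7, 5.90, 6.30 and 3.57 CPM at onset. In mice 6–10 (batch 2) it was 9.44, 6.08, 9.98, 11.9 and 10.1 CPM at 6 weeks, 2.81, 5.03, 4.29, 3.14 and 6.27 CPM at −5 weeks and 2.95, 2.57, 2.96, 2.63 and 2.23 CPM at onset. From −5 weeks to onset the highest sample held 11.98 CPM in batch 1 and 6.27 CPM in batch 2, so the later biopsies overlapped the 6-week samples in both. Onset was above −5 weeks in 4 of 5 mice of batch 1. The changes of *Gata6* from 6 weeks to the later biopsies were −1.39 ± 0.33 in batch 1 (adjusted p = 0.00432, 27.1% of genes called) and −1.26 ± 0.17 in batch 2 (adjusted p = 1.80e-06, 31.2% called). *Prg4* in mice 6–10 was 49.1, 2.63, 26.0, 121 and 37.3 CPM at 6 weeks, so mouse 7 was already at the level of later biopsies, and 1.65, 1.72, 2.88, 1.18 and 1.53 CPM at onset. In mice 1–5 it was 31.7, 61.4, 21.2, 31.1 and 10.9 CPM at 6 weeks, 9.50, 4.53, 3.71, 2.68 and 4.89 CPM at −5 weeks and 12.7, 39.0, 4.26, 8.70 and 1.83 CPM at onset. There mouse 2 was highest at onset, not at −5 weeks, and the onset range overlapped that of 6 weeks.

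Among the genes of scavenging and complement uptake, *Cd5l* and *Timd4* fell further in batch 2 than in batch 1, as tested by an interaction. *Cd5l* in mice 6–10 was 14.2, 4.23, 16.3, 13.5 and 17.1 CPM at 6 weeks, 4.15, 3.83, 3.18, 4.06 and 1.33 CPM at −5 weeks and 0.899, 0.762, 0.745, 0.671 and 0.564 CPM at −1 week. At onset it was 0.0709, 0.137, 0.317, 0.558 and 0.542 CPM, which rested on 3 to 18 counts per sample. Each mouse of batch 2 was lower at onset than at −5 weeks, and the 2 times did not overlap. In mice 1–5, *Cd5l* was 5.97, 6.71, 4.73, 3.08 and 4.36 CPM at 6 weeks, 1.39, 1.20, 2.00, 3.42 and 5.59 CPM at −5 weeks and 2.83, 3.77, 1.72, 2.58 and 1.32 CPM at onset, with overlapping ranges. The change of *Cd5l* from 6 weeks to the later biopsies was −1.21 ± 0.36 in batch 1 (adjusted p = 0.0159) and −3.46 ± 0.41 in batch 2 (adjusted p = 1.96e-07). That of *Timd4* was −0.49 ± 0.23 in batch 1 (adjusted p = 0.114) and −2.05 ± 0.32 in batch 2 (adjusted p = 1.54e-05). Mouse 9 of batch 2 held 12.2 CPM of *Timd4* at 6 weeks. Without mouse 9, the *Timd4* change over both batches was −0.78, against −1.39 with all mice. The interaction below was not fitted without mouse 9. The interaction of batch and time, added after the data were seen, passed for *Cd5l* (−2.22 ± 0.65, adjusted p = 0.0392) and *Timd4* (−1.56 ± 0.47, adjusted p = 0.0459) and for none of the other 7 genes (edgeR's quasi-likelihood test, 4.66% of genes called).

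**Figure D3:**
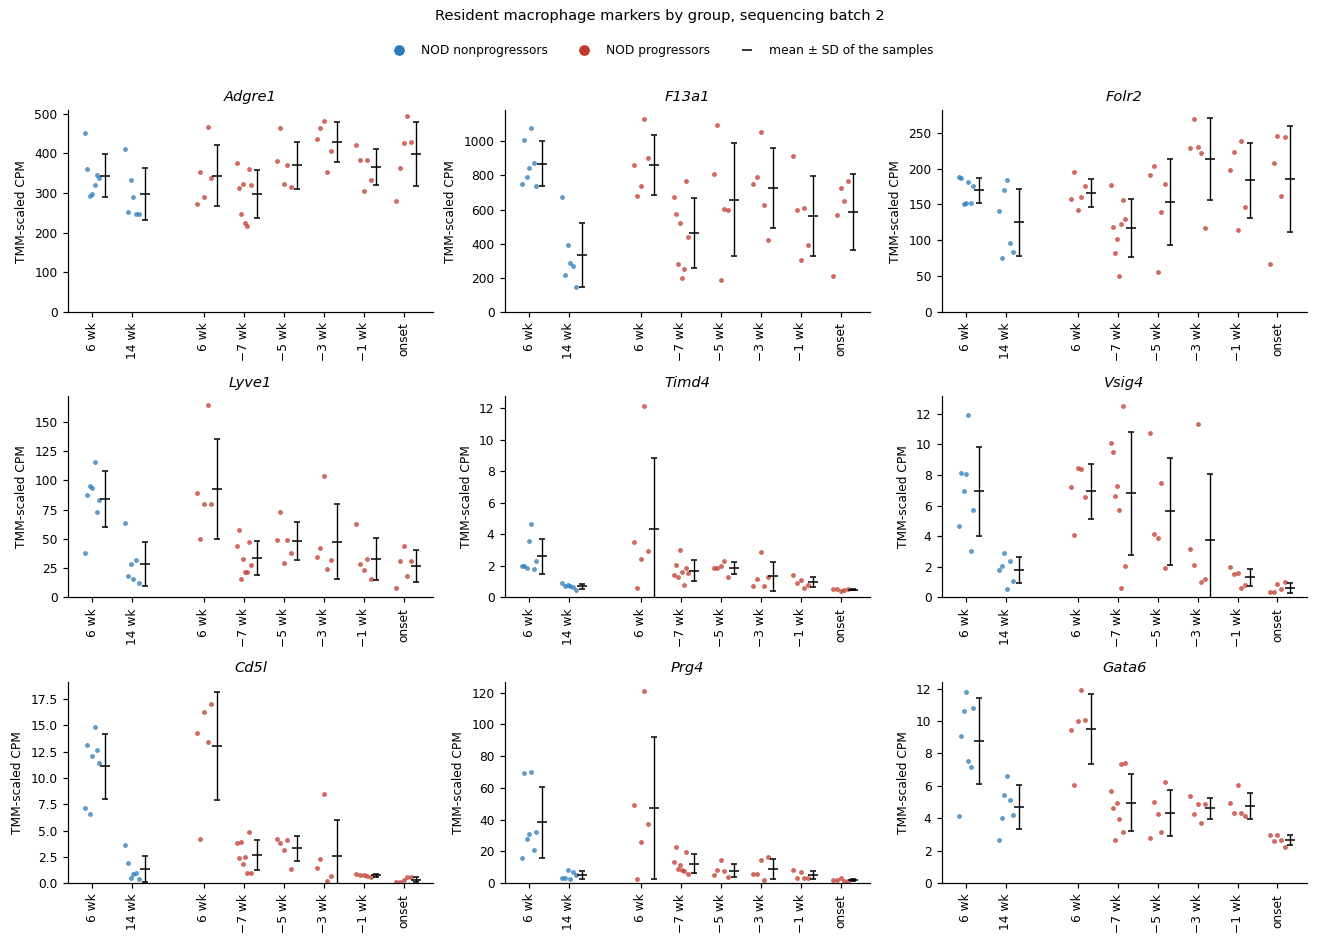
TMM-scaled CPM of the 9 genes in the 46 samples of batch 2, by group and age or weeks from onset; each point is a sample and the bars give the mean ± SD, cut at 0. *Timd4*, *Vsig4*, *Cd5l* and *Prg4* are lowest at onset (*Timd4* between 0.432 and 0.547 CPM), whereas *Adgre1* at onset (279 to 494 CPM) overlaps every other group.

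The lists beside these changes moved as follows in progressors after 6 weeks, where 39.5% of all genes were called and 19.9% were called lower. All 6 fibroblast genes were lower (median log2 change −1.33), led by *Col3a1* (−1.54) and *Pi16* (−1.48), and 3 of 4 blood endothelial genes were lower, *Emcn* (−0.85), *Cdh5* (−0.65) and *Kdr* (−0.62). Of 6 lymphatic genes, which matter beside *Lyve1*, *Reln* was lower (−1.26) and none was higher (median −0.33). The summed fibroblast level in batch 1 ranged from 31725 to 59490 CPM at 6 weeks and from 6724 to 30649 CPM at onset, and in batch 2 from 31429 to 58521 CPM and from 4799 to 14581 CPM. In the pan-macrophage list, with a median change of 0.17, *Mpeg1* (0.42) and *Cd14* (0.28) were among the genes that were higher and *Fcgr1* (−0.69) was lower. Of 17 interstitial macrophage genes, *Cbr2* (−0.93) and *Maf* (−0.40) were lower and the chemokine *Ccl8* (0.67) was higher, with a median of 0.00. In the serous cavity list, *Ltbp1* (−1.19), *Tgfb2* (−1.03) and *Fcna* (−0.56) were lower and *Alox15* was higher (1.99) among 12 genes. *Marco* (−3.95 ± 0.39, adjusted p = 4.57e-11) and *Siglec1* (−0.53) were lower among 7 Kupffer and splenic genes. Of 8 monocyte genes, *Plac8* (−1.37), *Ly6c2* (−1.36) and *Ccr2* (−0.48) were lower and *Chil3* (3.13) was higher. The T cell list had 3 of 6 genes higher, the B cell list 3 of 4 and the platelet list 3 of 5. Within batch 2, 4 of 5 adipocyte genes were higher (31.2% of all genes called), and within batch 1, 1 of 5 was lower (27.1% called). The part of these cell types in the changes of the 9 genes was not tested.

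The −7 samples ask whether the drop precedes the later course. Compared with 6 weeks, 4 of the 9 genes were lower at −7 (edgeR's quasi-likelihood test, 12.5% of genes called, 6.64% lower): *Lyve1* (−1.35 ± 0.35, adjusted p = 0.00765), *Cd5l* (−1.71 ± 0.55, adjusted p = 0.0301), *Gata6* (0.499-fold, adjusted p = 0.0180) and *Prg4* (−1.59 ± 0.56, adjusted p = 0.0487). When each mouse was fitted as a block none of these 4 passed (adjusted p of 0.0674, 0.154, 0.189 and 0.162, 4.15% of genes called). Leaving out single mice ended the call for *Prg4* in 7 of 10 fits, and for *Cd5l* (without mouse 4, 6 or 10) and *Gata6* (without mouse 3, 6 or 9) in 3. Without the filter on low counts *Cd5l* (adjusted p = 0.0517) and *Prg4* (adjusted p = 0.0803) lost their calls. Within batch 2 they all passed, together with *Timd4* (−1.36 ± 0.40, adjusted p = 0.0173, 19.1% of genes called). That fit also held the −7 samples of mice 1–4, which had no 6-week sample in batch 2. *Vsig4* did not pass (0.26 ± 0.56, adjusted p = 0.819). Its 8 samples at −7 ranged from 0.633 to 12.5 CPM (median 6.96), and the 5 samples at 6 weeks in batch 2 from 4.06 to 8.46 CPM. Of the −7 samples, those of mice 1–4 held 6.64 to 10.0 CPM of *Vsig4*, while the other times of the same mice, sequenced in batch 1, held at most 2.95 CPM. Since these were scaled separately, the step cannot be told apart from the change of batch. Beside the −7 differences, the fibroblast genes *Col1a1* (−1.13) and *Col3a1* (−1.14) were lower among 6 (median −0.59), and 2 of 4 epidermal genes were lower. In batch 2 the summed fibroblast level ranged from 31429 to 58521 CPM at 6 weeks and from 13093 to 25792 CPM at −7. None of the 6 lymphatic genes passed (median −0.59), and their sum ranged from 131 to 183 CPM and from 68.1 to 129 CPM, without overlap. In batch 1 *Pdpn* averaged 107 CPM and the next of these genes, *Flt4*, 9.09 CPM, so such a sum mainly follows *Pdpn*. Of the macrophage lists, *Mertk* (0.63), *Nr1h3* (0.65) and *Fxyd2* (1.75) were among the genes that were higher, and *Marco* (−2.81) was lower. The part of these cell types in the −7 differences was not tested.

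From −7 to the later biopsies, *Adgre1* was 1.30-fold higher (log2 change 0.37 ± 0.11, edgeR's quasi-likelihood test, adjusted p = 0.0365, 3.89% of genes called), and no other gene of the 9 passed. *Adgre1* in batch 2 averaged 298 ± 60.8 CPM (SD, n = 8) at −7 and 370 ± 59.1, 428 ± 51.1, 365 ± 45.8 and 398 ± 81.1 CPM (n = 5 each) at −5, −3 and −1 weeks and onset, with overlapping ranges. The call was lost when each mouse was a block (adjusted p = 0.137, 0% of genes called), without the filter on low counts (0.0705) and in 7 of 10 fits that each left out a mouse (up to 0.145). *Folr2* (0.65 ± 0.20, adjusted p = 0.0520) and *Vsig4* (−1.45 ± 0.46, adjusted p = 0.0577) lay just outside the threshold in this edgeR fit. DESeq2 called both (adjusted p of 0.0188 and 0.0369), and edgeR with RLE factors in place of TMM called *Folr2* (adjusted p = 0.0479). Within batch 2, *Vsig4* (−1.73 ± 0.37, adjusted p = 0.00628) and *Prg4* (−1.29 ± 0.37, adjusted p = 0.0325) passed (6.32% of genes called). That fit compared partly different mice, since mice 1 to 4 had no later sample in batch 2. At −7 mice 1 to 4 averaged 8.36 ± 1.66 CPM of *Vsig4* (SD, n = 4). Mice 6, 7, 9 and 10 averaged 5.21 ± 5.30 CPM (n = 4). For *Prg4* the means were 14.1 ± 6.18 and 10.4 ± 6.30 CPM.

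**Figure D4:**
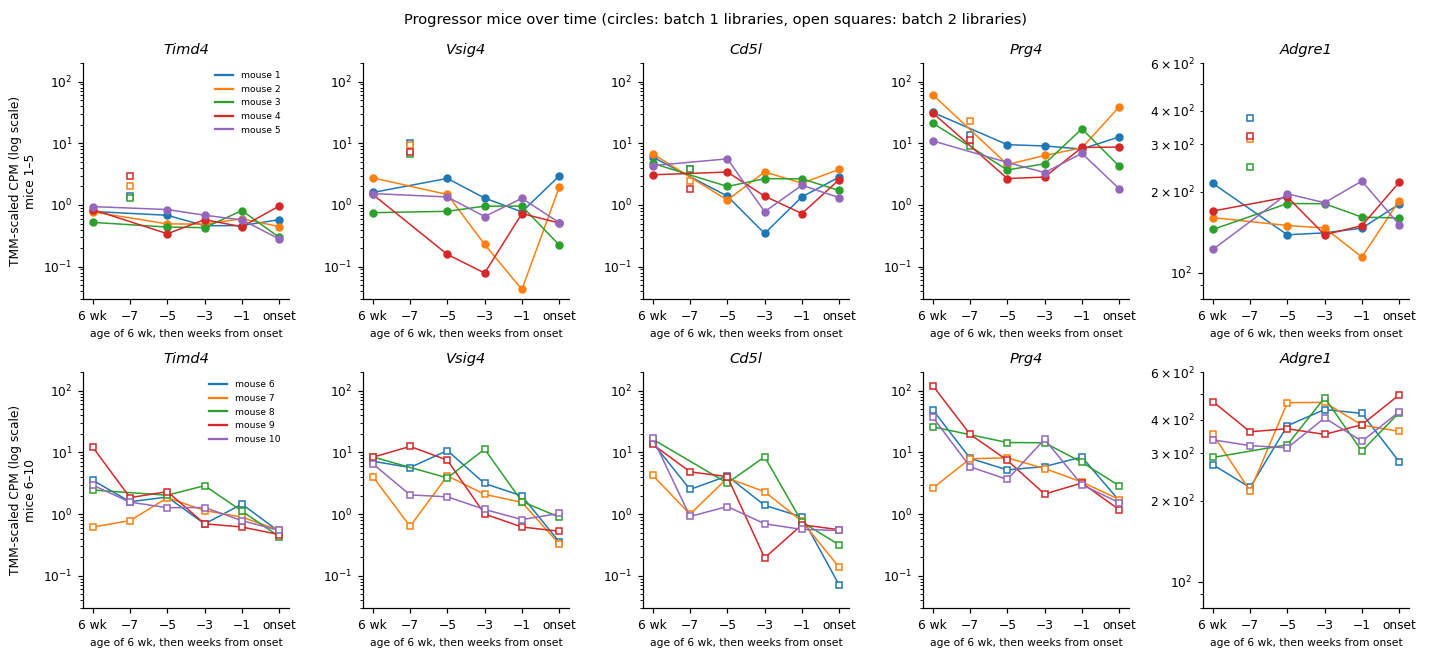
TMM-scaled CPM (log scale) of 5 genes in each progressor mouse, with mice 1–5 above and mice 6–10 below; lines join samples of a mouse within a batch, and filled circles are batch 1 libraries and open squares batch 2 libraries. *Cd5l* in mice 6–10 ends between 0.0709 and 0.558 CPM at onset, and in mice 1–5 between 1.32 and 3.77 CPM.

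Onset was then compared with −5 weeks, an interval in which each mouse had both biopsies in the same batch. Over both batches none of the 9 genes was called (edgeR's quasi-likelihood test, 1.77% of 21279 genes called, 3 of the 9 with an unadjusted p under 0.05). *Timd4* had a log2 change of −0.94 ± 0.35 (adjusted p = 0.129), *Vsig4* of −1.28 ± 0.56 (adjusted p = 0.205) and *Cd5l* of −1.23 ± 0.52 (adjusted p = 0.191). The batches gave different values. Within batch 2, 4 of the 9 genes were lower at onset (9.23% of genes called, 5.90% lower). *Cd5l* fell by 3.35 ± 0.68 (0.0982-fold, adjusted p = 0.00241), *Vsig4* by 3.15 ± 0.66 (0.112-fold, adjusted p = 0.00297), *Prg4* by 2.10 ± 0.62 (adjusted p = 0.0308) and *Timd4* by 1.87 ± 0.49 (adjusted p = 0.0144). Each of these 4 genes was lower at onset than at −5 weeks in 5 of 5 mice of batch 2.

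*Vsig4* in mice 6–10 was 10.7, 4.16, 3.86, 7.48 and 1.91 CPM at −5 weeks and 0.354, 0.328, 0.892, 0.527 and 1.02 CPM at onset, so the 2 times did not overlap. *Timd4* was 1.89, 1.84, 2.02, 2.31 and 1.27 CPM at −5 weeks and 0.520, 0.547, 0.432, 0.465 and 0.542 CPM at onset, with the onset values within a narrow range. *Prg4* was 5.20, 8.15, 14.5, 7.43 and 3.65 CPM at −5 weeks, all above its onset values. In batch 1 none of the 9 passed (0.0051% of genes called). There *Vsig4* was 2.69, 1.48, 0.789, 0.158 and 1.35 CPM at −5 weeks and 2.95, 1.93, 0.224, 0.510 and 0.517 CPM at onset, lower in 2 of 5 mice. *Prg4* was lower at onset in 1 of 5 mice (log2 change 1.39 ± 0.58, adjusted p = 0.225), *Cd5l* in 3 (−0.15 ± 0.49, adjusted p = 0.899) and *Timd4* in 4 (−0.11 ± 0.30, adjusted p = 0.875). The interaction of batch and time passed for *Prg4* (−3.44 ± 0.90, adjusted p = 0.0165), *Cd5l* (−3.13 ± 0.86, adjusted p = 0.0209) and *Vsig4* (−3.04 ± 0.95, adjusted p = 0.0426), and not for *Timd4* (−1.71 ± 0.61, adjusted p = 0.0769), with 6.73% of genes called.

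The 3 most abundant genes, *Lyve1* and *Gata6* did not pass. Between −5 weeks and onset in batch 2, *Folr2* had a log2 change of 0.29 ± 0.32 (adjusted p = 0.620), *F13a1* of −0.14 ± 0.38 (adjusted p = 0.863), *Adgre1* of 0.12 ± 0.16 (adjusted p = 0.692) and *Lyve1* of −0.83 ± 0.43 (adjusted p = 0.229). *Gata6* had a change of −0.67 ± 0.24 there (adjusted p = 0.0725) and of 0.79 ± 0.46 in batch 1 (adjusted p = 0.389). None of the 13 pan-macrophage genes passed there (median −0.01). Genes of other cells did: 5 of 6 fibroblast genes (median −1.39) and 4 of 4 blood endothelial genes (median −1.32) were lower in batch 2. None of either list passed in batch 1 (medians of 0.49 and 0.87). Of all genes tested, 9.23% were called in batch 2 (5.90% lower) and 0.0051% in batch 1. The summed fibroblast level in batch 2 ranged from 11804 to 24300 CPM at −5 weeks and from 4799 to 14581 CPM at onset, and the blood endothelial sum from 99.1 to 229 CPM and from 35.9 to 97.6 CPM. Of the other macrophage lists in batch 2, 5 of 17 interstitial, 3 of 12 serous cavity and 2 of 7 Kupffer and splenic genes were lower, with 1 serous cavity gene higher, and 4 of 8 monocyte genes were lower. In batch 1 none of the 4 lists had a gene that passed. The part of fibroblasts, endothelium and monocytes in the batch 2 drop was not tested.

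**Figure D5:**
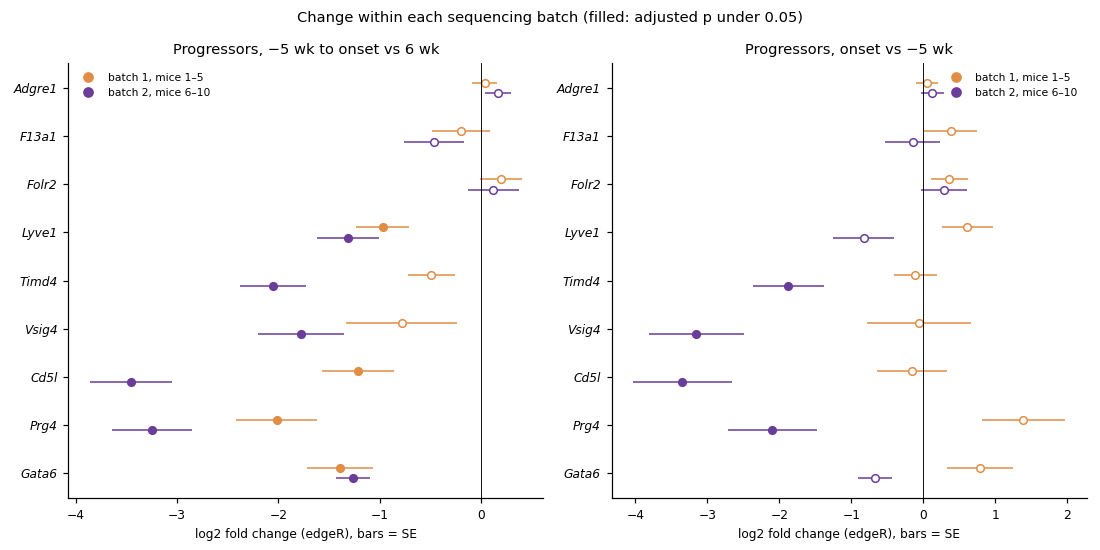
Log2 change (edgeR, bars are the SE) of each gene in progressors within batch 1 (mice 1–5) and within batch 2 (mice 6–10), for −5 weeks to onset against 6 weeks on the left and onset against −5 weeks on the right, with filled points at an adjusted p under 0.05. For *Gata6* on the left the batches are close (−1.39 and −1.26), and for *Prg4* on the right they lie on opposite sides of 0 (1.39 and −2.10).

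The other genes whose levels ran most like each of the 9 were read from Spearman correlations of log2 CPM over the 74 samples of batch 1 and the 46 of batch 2. The 3 with the highest value in the worse of the batches are given, as a description over samples that share mice and libraries. *Lyve1* ran with *Cbr2* (0.78 and 0.94), *F13a1* (0.74 and 0.85) and *Add3* (0.74 and 0.84), and *F13a1* in turn with *Gm30489* (0.77 and 0.82), *Cbr2* and *Lyve1*. *Folr2* ran with *Mrc1* (0.79 and 0.72), *Etv5* and *Fez2*, and *Adgre1* with *Folr2* (0.68 and 0.70), *Nrros* and *Mrc1*. *Mrc1* encodes the mannose receptor CD206. *Timd4* was nearest to *Mex3b* (0.65 and 0.75), *Ccl24* (0.64 and 0.83) and the microglial receptor gene *P2ry12* (0.62 and 0.82). *Vsig4* was nearest to *Reg1* (0.76 and 0.77), *Cyth3* and *Ms4a6b*, and *Cd5l* to *Ednrb* (0.66 and 0.84), *Tspan6* and *Pi15*. For *Prg4* the nearest were *Ly6a* (0.87 and 0.94), *Cfb* (0.86 and 0.92) and *Lbp* (0.86 and 0.92). For *Gata6* they were the mesenchymal factor genes *Ebf2* (0.85 and 0.87) and *Zfp423* (0.82 and 0.84), and *Heg1* (0.80 and 0.80).

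Correlations with the summed cell type lists separated the genes in the same descriptive way. *Gata6* had a rho with the pan-macrophage sum of −0.57 in batch 1 and −0.60 in batch 2, and with the blood endothelial sum of 0.66 in both. With the fibroblast sum, *Cd5l* had 0.44 and 0.87, *Prg4* 0.58 and 0.80, *Timd4* 0.10 and 0.76, *Vsig4* 0.00 and 0.76, and *Lyve1* 0.29 and 0.77. *Gata6* had 0.51 and 0.58 with it, and *F13a1* 0.27 and 0.57. *Folr2* (−0.06 and −0.11) and *Adgre1* (−0.03 in both) showed little relation to it. In batch 1 *Col1a1* averaged 11853 CPM, *Col3a1* 10320 CPM and *Dcn*, the next, 343 CPM, so the fibroblast sum mainly follows these collagen genes. In the pan-macrophage sum *Lyz2* was largest there (2689 CPM, next *Cd68* with 966 CPM). With the interstitial macrophage sum, *F13a1* had 0.56 and 0.71, *Adgre1* 0.48 and 0.56, and *Lyve1* 0.46 and 0.66. *Vsig4* had 0.41 and 0.61 with that sum, *Prg4* 0.38 and 0.52, and *Timd4* 0.32 and 0.61. The values for *Folr2* were 0.29 and 0.36, for *Cd5l* 0.27 and 0.46, and for *Gata6* 0.27 and 0.22. The mesothelial list, for the lining of the cavities where GATA6 macrophages live, had calls in both directions. In progressors after 6 weeks, *Msln* was lower (−2.44) and *Lrrn4* higher (1.18) among 4 genes, where 39.5% of all genes were called. In nonprogressors, *Msln* was lower (−1.72) and *Krt19* higher (2.44) among 3, where 24.1% of all genes were called.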

How the data were processed

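Total RNA depleted of ribosomal RNA was sequenced from the biopsies in 2 batches on different NovaSeq instruments. The deposited values are the authors' expected counts per gene, whole numbers in a table per batch. The submitters' processing notes name cutadapt, FastQC, STAR, RSEM, MultiQC and the GRCm38 build, with versions not given in the sources used here. Rows that name no gene were left out, which gave 55487 genes listed in both tables.

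Groups came from the sample labels. Tests used edgeR 4.0.16 in R 4.3.3 (filterByExpr, TMM factors, quasi-likelihood fit, Benjamini-Hochberg adjustment over all genes tested, threshold 0.05), with batch as a covariate where a comparison held both batches. All 9 genes passed the filter in every comparison. For strain, and for the later biopsies of progressors against nonprogressors, the counts of each mouse were summed. In other fits repeated biopsies of a mouse entered as separate samples, and the mouse was a block in an alternative. Mouse numbers in the labels were taken to mark the same animal within NOR, nonprogressors or progressors, except in the samples labelled by days. Over 2000 genes the mean correlation of same-mouse deviations was 0.0150 in NOR, 0.00866 in nonprogressors and −0.00213 in progressors. Between different mice it was −0.00105, −0.00298 and 0.00129, so samples of a mouse were hardly more alike than those of different mice. DESeq2 1.42.0, other factors, no filter, batch settings and leaving out each mouse were alternatives. Levels are TMM-scaled CPM within a batch, since the tables were scaled separately. Each list was described by its counts and median. The 9 genes and all lists were chosen with earlier results of these data known. Named beyond the 9 were list genes past the threshold and the genes most alike, among 15263 with a mean of at least 1 CPM. Promoters came from RefSeq (GRCm38.p6). The scripts were tested on simulated data. A list gene is not reported here.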

Additional observations from a re-analysis of the deposited data

Results flagged for a closer look

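In 13 of 207 combinations of group and gene, the highest or lowest sample lay far from the others by Dixon's criterion, which chance alone gives in about 1 in 20. At −3 weeks in batch 2, progressor mouse 8 was the highest for 4 of the genes, with 2.89 CPM of *Timd4*, 104 CPM of *Lyve1*, 11.3 CPM of *Vsig4* and 8.48 CPM of *Cd5l*. Nonprogressor mouse 4 at 10 weeks was highest for *Gata6* (12.2 CPM) and *Prg4* (97.1 CPM). At 6 weeks in batch 2, progressor mouse 9 was highest for *Timd4* (12.2 CPM), progressor mouse 7 was lowest for *Cd5l* (4.23 CPM), and nonprogressor mouse 5 was highest for *Adgre1* (451 CPM). In batch 1, progressor mouse 3 was highest for *Prg4* at −1 week (17.2 CPM), progressor mouse 2 for *Lyve1* at onset (52.6 CPM) and nonprogressor mouse 1 for *Folr2* at 22 weeks (165 CPM), and NOR mouse 5 was lowest for *Folr2* at 6 weeks (53.9 CPM).

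In progressors, 5 changes differed between batch 2 and batch 1 by the interaction test. For −5 weeks to onset against 6 weeks, the log2 difference of changes was −1.56 for *Timd4* and −2.22 for *Cd5l*. For onset against −5 weeks, it was −3.04 for *Vsig4*, −3.13 for *Cd5l* and −3.44 for *Prg4*.

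The 6 nonprogressor samples that carry days since implantation in place of an age were in no comparison. Both samples of *Timd4* at 31 days (lowest 2.09 CPM) and at 108 days (lowest 3.24 CPM) lay above the highest NOR sample of the same batch (1.18 CPM), and both samples of *Vsig4* at 108 days (lowest 4.67 CPM) lay above the highest NOR sample (3.86 CPM). At 38 days neither gene did (*Timd4* 0.893 and 0.430 CPM, *Vsig4* 1.58 and 1.60 CPM), nor did *Vsig4* at 31 days (3.07 and 2.54 CPM). These differences were not tested.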

How the results depend on the processing

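Under alternatives that kept all mice, 321 log2 fold changes of the 9 genes kept their direction and side of the threshold, 14 no longer passed, 19 newly passed and 13 changed sign. With a mouse left out, 479 were unchanged in this sense, 31 no longer passed, 9 newly passed and 5 changed sign. The cause was not tested in any case.

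Counts over all genes moved as follows. For NOR with age (7 genes), DESeq2 called 46, no filter 12, the mouse as a block 2 and the fit without the 18-week sample of mouse 5 called 12. For nonprogressors (5094), 9173 were called without the batch term and 2712 within batch 1. For progressors after 6 weeks (8403), 5317 were called within batch 1. For −7 weeks against 6 weeks (2670), 883 were called with the mouse block and 4077 within batch 2. For later biopsies against −7 (828), 0 were called with the mouse block (3014 with an unadjusted p under 0.05 by edgeR, and DESeq2 without the block called 1203), 2157 without the batch term and 1352 within batch 2. For onset against −5 weeks (377), DESeq2 called 830, no filter 103, no batch term 14, batch 2 alone 1973 and batch 1 alone 1. For later progressors against nonprogressors (3), DESeq2 called 79, each biopsy as a sample 9, and edgeR 0 with no filter, no batch term or batch 1 alone (3293, 1129 and 1121 with an unadjusted p under 0.05). DESeq2 called 9 for the difference of age changes between nonprogressors and NOR (edgeR 0), and the 6-week strain comparison called 403 against 2101 over all ages. The split of higher and lower calls was 1536 and 1477 by DESeq2 against 906 and 1195 for strain, and 2502 and 2531 with RLE factors or 2865 and 2809 by DESeq2 against 2089 and 3005 in nonprogressors.

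With a mouse left out, counts ranged from 1433 to 2081 for strain, 0 to 54 for NOR (54 without NOR mouse 4, 3 without mouse 3 and 0 without mouse 1, 2 or 5), 2786 to 5367 for nonprogressors (lowest without mouse 1), 7349 to 8242 for progressors, 1475 to 2932 for −7 against 6 weeks (lowest without mouse 6), 161 to 1509 for later against −7 (lowest without mouse 6, highest without mouse 8) and 10 to 1088 for onset against −5 (10 without mouse 8, 11 without mouse 9 and 1088 without mouse 10). The difference of age changes stayed at 0.

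Log2 changes that changed sign were those of *Adgre1* in nonprogressors (0.0107 by DESeq2, 0.0109 with RLE factors, 0.20 within batch 1, and from −0.0430 to 0.0346 with a mouse left out, above 0 without mouse 6, 9 or 10) and in NOR (from −0.168 to 0.0359, above 0 without mouse 1 or 5). In nonprogressors, *Folr2* was −0.27 without the batch term and −0.44 within batch 2, *Lyve1* 0.0848 and *F13a1* 0.36 within batch 1. Without the batch term, *Adgre1* was 0.14 at −7 against 6 weeks and −0.0208 later against −7, where *Gata6* was 0.12. For later progressors against nonprogressors, *Folr2* was −0.21 within batch 1 and −0.0221 with each biopsy as a sample, and *F13a1* −0.12 within batch 1. The mouse block changed no call of the 9 genes beyond those given for the −7 samples. Under CPM without TMM factors, 19 group means moved by more than their SD and 215 did not. Depth limits *Timd4*, *Vsig4* and *Cd5l*, whose lowest libraries held 0, 0 and 3 counts.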
